A study of Mus musculus with 12 samples.

Results

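The genes described here are the interleukins, the chemokines and the receptors of both, as they were measured in sorted mouse CD4+ T cells. They were chosen by name and by depth: rows of the deposited gene count table whose symbol begins as those of a chemokine, chemokine receptor, interleukin or interleukin receptor, with estimated counts summing to at least 120 over the 12 libraries. Of 97 rows with such a name 71 reached that sum, 8 of these were left out by name (Il2ra, Il10, Il21, Il4, Il1rl2, Ccl5, Cxcl10 and Cxcl3), and 63 genes of the 13404 rows in the table remained. They comprised 18 chemokine ligands, 13 interleukin ligands, 19 interleukin receptor chains, 9 chemokine receptors and 4 antagonists, decoy receptors or enzymes. Cxcl15 (sum 146.5), Il17f (158.1) and Cxcr1 (184.0) lay just inside the minimum, and Il17c (111.1), Cxcl1 (109.9) and Il6 (106.1) just outside it.

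Poly(A)-enriched RNA was sequenced from regulatory T cells (Treg, sorted as CD4+CD25+) and conventional T cells (Tconv, sorted as CD4+) of the spleen of C57BL/6 mice. Each cell type came from 3 kinds of mice: aged wild type of over 18 months, mice of 2 months labelled Dcaf1-deficient, and young wild type of 2 months. Dcaf1 encodes a substrate receptor of a ubiquitin ligase; the labels give neither its allele nor a Cre driver, and the gene, named Vprbp in the table, was at 102 and 101 CPM in Dcaf1-deficient-labelled Treg against 144 and 128 in young Treg, and at 132 and 132 in Dcaf1-deficient-labelled Tconv against 147 and 144 in young Tconv. Counts of this kind are not resolved by exon and cannot tell whether part of the gene was deleted, so Dcaf1-deficient is used here as the label of a library. Each of the 6 groups holds 2 libraries, and nothing in the labels says that these came from separate animals, so the p-values measure the spread between libraries only. Levels are CPM, counts scaled to the size of the library. CPM is not corrected for gene length, so levels are compared between groups and not between genes.

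Interleukins and chemokines are secreted proteins through which immune cells instruct and attract one another. Interleukin receptors are built from 2 or more chains, one often shared among several ligands, and signal mostly through JAK kinases and STAT factors or, in the family of IL-1, IL-18 and IL-33, through the adaptor Myd88. Chemokine receptors signal through G proteins and steer cells to lymph nodes, gut or inflamed tissue. In Treg of the spleen, the receptors for IL-2, IL-10 and IL-33 are known for their part in survival and suppression.

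The libraries held 18358477 to 26852448 estimated counts, and several stood apart. The summed level of 7 macrophage genes (of 10 listed; the table holds these) was 6008 and 504 CPM in aged Treg 1 and 2, 7175 and 8913 in Dcaf1-deficient-labelled Treg and 85.5 and 2552 in young Treg, against 13.3 to 678 over the 6 Tconv libraries. The sum of 7 B cell genes was 2183 and 123 CPM in aged Treg, 2563 and 2711 in Dcaf1-deficient-labelled Treg and 90.5 and 2890 in young Treg, against 43.7 to 391 over the Tconv libraries. The sum of 5 erythroid genes was 4383 and 145 CPM in aged Treg, 5164 and 11646 in Dcaf1-deficient-labelled Treg and 19.4 and 1570 in young Treg, and it was 1468 and 1461 in Dcaf1-deficient-labelled Tconv against 6.43 to 149 in the other Tconv libraries. Over all genes aged Treg 1 was nearest to Dcaf1-deficient Treg 1, with a mean chi-square per gene of 12.3 (1 expected from sampling), against 327 between aged Treg 1 and aged Treg 2 and 40.2 between the Dcaf1-deficient Treg libraries. Vprbp was at 105 CPM in aged Treg 1 and 127 in aged Treg 2. The aged label of aged Treg 1 is therefore in doubt, and each result on aged Treg rests on it unless given without that library. In aged Treg the sum of 5 T cell genes was 2152 and 4622 CPM, against 4062 and 2693 in young Treg. It was 1872 and 1726 in Dcaf1-deficient-labelled Treg and 4690 to 7089 over the Tconv libraries. Its part in members that were low in Treg was not tested. Of the 4 Treg markers Foxp3, Ikzf2, Il2ra and Ctla4, the sum was 2129 and 3151 CPM in aged Tconv against 336 and 409 in young Tconv. In Treg that sum was 2799 and 7224 CPM in the aged, 2315 and 1918 under the label Dcaf1-deficient and 5178 and 2985 in the young. Foxp3 itself was at 334 and 675 CPM in aged Tconv and 47.7 and 78.4 in young Tconv, whereas Il2ra, the gene of the sorting marker CD25, was at 43.1 and 29.7 in aged and 31.8 and 63.2 in young Tconv. The transcript Xist was at 1263 to 2018 CPM in aged Treg 2, Dcaf1-deficient Treg 2, aged Tconv 2 and both Dcaf1-deficient Tconv libraries, and at most 2.94 in the other libraries. It was thus high in both Dcaf1-deficient and in neither young Tconv library. Differences between those groups cannot be told apart from the Xist difference. In aged Treg, aged Tconv and Dcaf1-deficient Treg only library 2 had it at a high level. A tag in the titles, of unstated meaning, is L3 for aged Treg 2 and aged Tconv 2, L5 for young Tconv 2, aged Tconv 1 and both Dcaf1-deficient Tconv libraries, and L4 for the rest. In bulk samples such as these, fewer cells of a type and less RNA per cell cannot be told apart.

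All 63 members passed the filter on low counts. Ligands had few reads: 13 of 31 stayed below 5 CPM in every library and 4 reached 100 CPM in at least 1, against 3 and 14 of 28 receptors. Replicates differed by more than 2-fold for 28 members in aged Treg (44.4% of members, 17.7% of all genes tested), 20 in aged Tconv, 21 in young Treg and 10 in young Tconv, but only for 1 member between the Treg libraries, and 0 between the Tconv libraries, that carry the Dcaf1-deficient label. The spread between replicates was therefore wide for this class of genes in both wild-type ages.

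**Figure D1:**
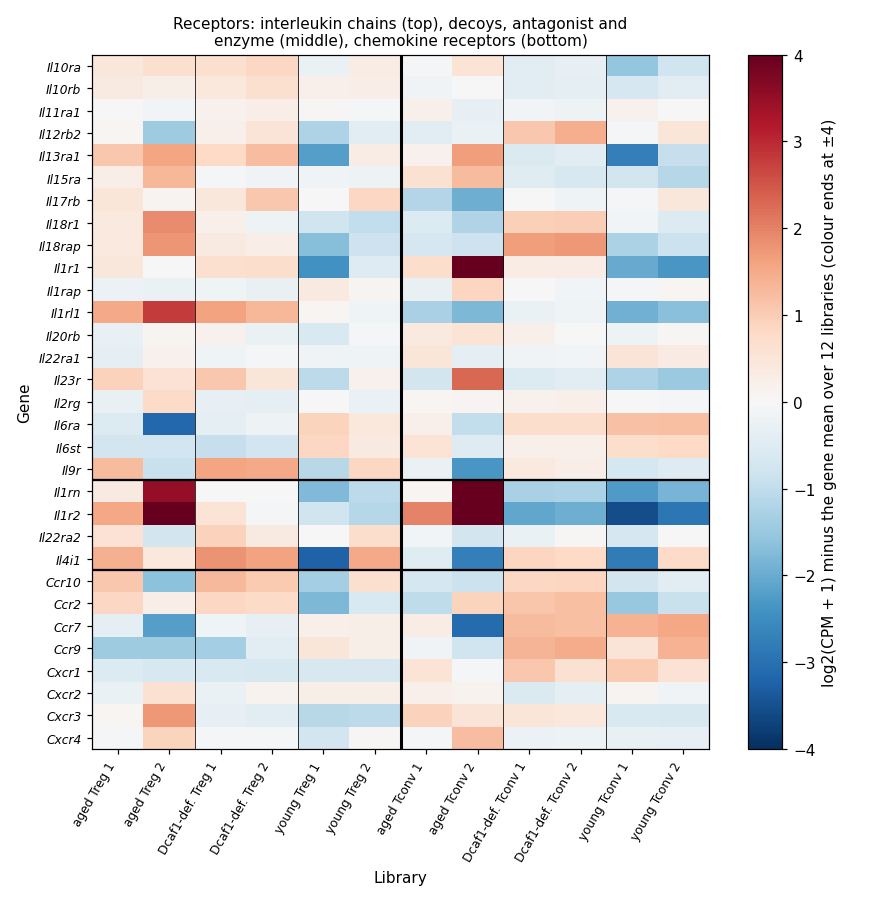
Levels of 27 receptors and the 4 antagonists, decoys and enzymes (rows) in the 12 libraries (columns, numbered by replicate), as log2(CPM + 1) minus the gene's mean over all libraries; colour ends at 4 either way. Il1rn and Il1r1 are reddest in aged Tconv 2, Il1r2 is past the end of the colours in aged Treg 2 and aged Tconv 2, and Il1rl1 is redder in the 6 Treg columns on the left than in the 6 Tconv columns on the right.

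**Figure D2:**
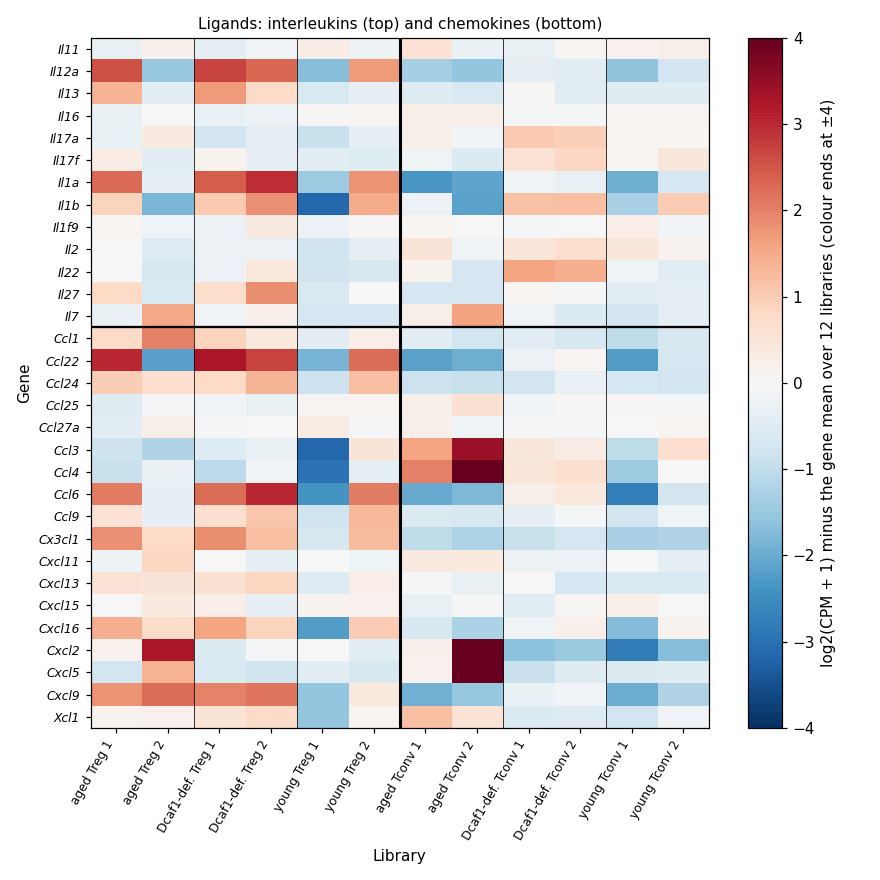
Levels of the 13 interleukins and 18 chemokine ligands (rows) in the 12 libraries (columns), drawn as for the receptors. Ccl22, Ccl6, Il1a and Il12a are red in aged Treg 1, both Dcaf1-deficient Treg libraries and young Treg 2 and blue in young Treg 1, while Cxcl2 and Cxcl5 are reddest in aged Tconv 2 and aged Treg 2.

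Which receptors and ligands set Treg apart was asked by comparing the mean of the 3 Treg groups with the mean of the 3 Tconv groups. By the edgeR quasi-likelihood test with p-values adjusted over 9495 genes at a threshold of 0.05, 11 members were higher and 5 lower in Treg (16 of 63), where 22.5% of all genes tested were called, 11.5% higher and 11% lower. The share of members called was thus near that of all genes. Among receptors the IL-33 receptor gene Il1rl1, the IL-25 receptor Il17rb, both IL-10 receptor chains and the IL-1 decoy Il1r2 were higher, and the lower ones included the gut-homing receptor Ccr9, Cxcr1 and the IL-6 receptor chain Il6st. Among ligands Cx3cl1, Cxcl9, Ccl1, Ccl24, Cxcl13 and Il1a were higher and Il2 was lower. The median log2 fold change was 0.55 over the ligands and 0.0029 over the receptors, against -0.0023 over all genes tested. Without young Treg 2 and aged Treg 1 edgeR called 18 members, 9 in each direction, and 14.4% of all genes tested. With a term for the title tag it called 4 members, Il1rl1, Il10rb, Il1r2 and Cxcr1. No share of all genes is set beside this number or beside those below from fits without a library. Leaving out each library in turn gave 6 to 23 members, and 6 of the 16 (Il1rl1, Il10rb, Cx3cl1, Cxcl9, Ccr9 and Cxcr1) were called each time. The fewest, 6 to 10, came without either Dcaf1-deficient Treg, either young Tconv or either Dcaf1-deficient Tconv library. Among the rest, Il1r2 was called in 2 of these 12 fits, Il2 and Il6st in 4 each and Il1a in 6. Of the 16, Cx3cl1, Cxcl13 and Cxcr1 had under 60 counts over the 6 libraries of the lower cell type, where the minimum sum over all 12 was 120, so they entered the set largely through the cell type in which they were high. The macrophage sum was also higher in 4 of the 6 Treg libraries, at 2552 CPM and above, than in any Tconv library, and its part in the ligands called was not tested.

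Within single conditions fewer members passed. Young Treg against young Tconv gave 1 member higher, Il10rb (0.8% of all genes called). In the aged, 1 member, Il1rl1, was higher in Treg than in Tconv (0.821% of all genes called). Under the label Dcaf1-deficient, Il10rb was higher and Ccr9 lower in Treg (2.22% of all genes called). Il1rl1 in the aged stayed called without any one of the 4 libraries, where 2 to 5 members were called in all, whereas leaving out any one library left 0 members called in the young and under the Dcaf1-deficient label.

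**Figure D3:**
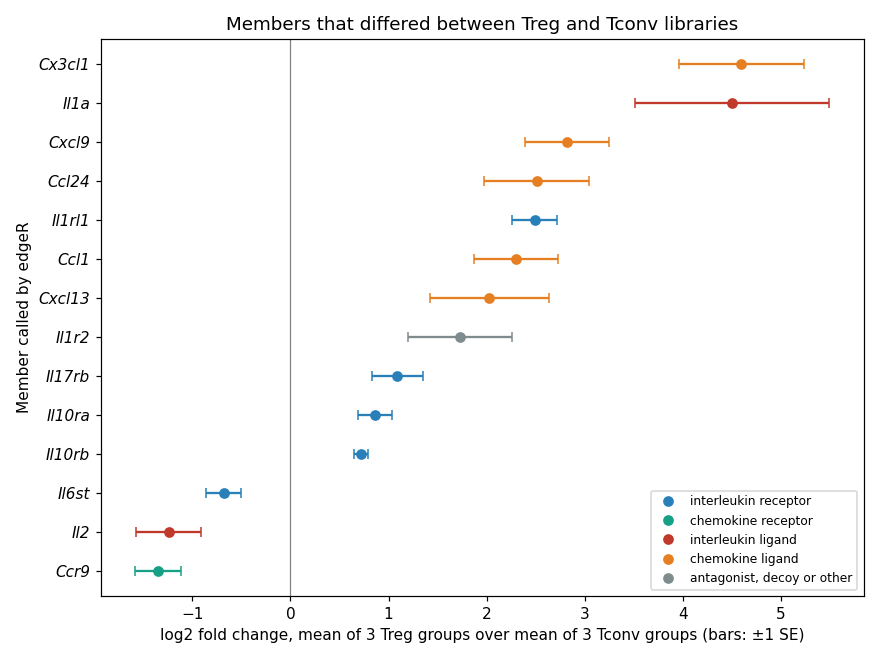
The log2 fold change of the mean of the 3 Treg groups over the mean of the 3 Tconv groups (horizontal axis, points with bars of 1 SE) for 14 of the 16 members called by edgeR (vertical axis), coloured by role; Cxcr1 is among those left out because young Treg held no count of it. Cx3cl1, which entered the set largely through its Treg counts, stands at 4.60. Il10rb, with the shortest bar, stands at 0.72 and Ccr9 stands lowest at -1.35.

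The effect of age was asked within each cell type. In Tconv, 7 members were higher and 1 lower in the aged, where 8.86% of all genes were called, 6.38% higher and 2.47% lower. All 8 code for receptors, a decoy or an antagonist, and this edgeR test called 0 of the 31 ligands. Its unadjusted p was under 0.05 for 2670 genes (28.1%). The ligands were not unchanged by every test. DESeq2 called Ccl3, Ccl4, Cxcl2, Cxcl5 and Il7 higher, where it called 21% of genes. With a term for the replicate number edgeR called Ccl4 and Cxcl2 higher. The changes called by edgeR without added terms included a rise of Il1r2, Il1rn, Il1r1, Il15ra, Il10ra and Il10rb and a fall of Il17rb. Leaving out aged Tconv 2, young Tconv 1 or young Tconv 2 left 0 members called, and leaving out aged Tconv 1 gave 18. With a term for the title tag 4 were called, among them Il1r2 and Il15ra again, and Ccr7 as lower. No share of all genes is set beside the numbers from fits with that term or without a library. The Treg markers Foxp3, Ikzf2 and Ctla4 were also higher in the aged Tconv libraries than in the young ones, and their part in these results was not tested.

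In Treg, age gave 0 members called by edgeR and 0% of all genes, with 1697 genes (17.9%) at an unadjusted p under 0.05. DESeq2 called 11 members higher and 3 lower, and 7.89% of genes; limma on the deposited log2 values called 0 members. Without aged Treg 1, the library nearest to Dcaf1-deficient Treg 1, edgeR called 7 higher and 1 lower, and 4.44% of genes. Without young Treg 2 as well it called 5 higher and 1 lower, and 2.5% of genes; this sets 1 library against 1 (aged Treg 2, tagged L3, against young Treg 1, tagged L4), takes the spread from the other groups and was chosen after the data were seen. The age difference itself did not differ between Treg and Tconv past the threshold for any member by edgeR (0% of all genes; 615 genes, or 6.48%, at an unadjusted p under 0.05); DESeq2 called 3 members, Il18r1, Il18rap and Il1rl1, where it called 1.44% of genes, and limma called 0.

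Libraries labelled Dcaf1-deficient were compared with the young of the same cell type. In Treg edgeR called 0 members (0% of all genes; 2359 genes, or 24.8%, at an unadjusted p under 0.05) and DESeq2 called 5 higher and 3 lower, where it called 12.4% of genes. Without young Treg 2 and aged Treg 1 edgeR called 18 higher and 1 lower, and 22.8% of genes, with young Treg 1 as the lone young library. In Tconv edgeR called 0 members (0% of all genes; 954 genes, or 10%, at an unadjusted p under 0.05) and DESeq2 called 3, Ccr2, Il18rap and Il1rl1, where it called 2.61% of genes. The difference between those effects in Treg and in Tconv was called for 0 members by edgeR, DESeq2 and limma (260 genes, or 2.74%, at an unadjusted edgeR p under 0.05). The comparisons of aged and of Dcaf1-deficient libraries share the young libraries. In Tconv the Dcaf1-deficient label also cannot be told apart from Xist, which was high in both of its libraries and in neither young one.

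The 3 members with the largest changes called by edgeR without added terms in aged Tconv belong to the IL-1 receptor family and its regulators. Il1r2 (chromosome 1, 40074079 to 40125231), Il1r1 (40225080 to 40317257), Il1rl1 (40429570 to 40465415), Il18r1 (40465552 to 40500854) and Il18rap (40515362 to 40551705) lie within one stretch of the plus strand of mouse chromosome 1 in GENCODE M21 (GRCm38, the build of mm10), and Il1rn lies on chromosome 2 (24336853 to 24351494). Promoter sequences from RefSeq (GRCm38.p6), running 250 bases before to 50 after a transcript start on the plus strand, are shown for the decoy and the antagonist that rose in aged Tconv, for the receptor that set Treg apart, and for Cxcl2, whose highest values lay in the same libraries as those of Il1rn. The windows are chr1:40085843-40086142 for Il1r2, chr1:40429320-40429619 for Il1rl1 (the first of 2 starts), chr2:24336610-24336909 for Il1rn (the first of 3 starts) and chr5:90903649-90903948 for Cxcl2; the RefSeq start of Il1r2 lies inside the longer GENCODE gene. Capitals mark matches to 4 motifs searched on both strands: AP-1 (TGANTCA), STAT (TTCNNNGAA), forkhead (TGTTTAC) and NF-kB (GGG and TTTCC with any 2 bases between).
Il1r2: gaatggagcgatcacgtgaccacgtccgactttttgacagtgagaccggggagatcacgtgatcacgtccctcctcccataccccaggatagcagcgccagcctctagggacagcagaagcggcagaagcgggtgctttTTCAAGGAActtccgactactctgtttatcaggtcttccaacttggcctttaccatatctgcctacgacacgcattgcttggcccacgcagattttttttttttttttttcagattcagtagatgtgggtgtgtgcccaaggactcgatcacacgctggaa
Il1rl1: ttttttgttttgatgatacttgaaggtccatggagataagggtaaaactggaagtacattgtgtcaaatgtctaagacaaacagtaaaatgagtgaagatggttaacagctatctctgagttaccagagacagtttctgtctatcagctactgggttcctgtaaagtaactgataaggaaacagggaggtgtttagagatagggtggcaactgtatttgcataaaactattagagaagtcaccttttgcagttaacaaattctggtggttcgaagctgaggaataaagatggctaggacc
Il1rn: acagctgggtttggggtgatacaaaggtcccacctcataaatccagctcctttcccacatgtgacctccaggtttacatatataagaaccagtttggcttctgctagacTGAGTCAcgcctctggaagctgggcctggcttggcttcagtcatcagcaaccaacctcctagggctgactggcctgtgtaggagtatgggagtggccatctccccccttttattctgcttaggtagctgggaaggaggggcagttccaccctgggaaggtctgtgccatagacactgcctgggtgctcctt
Cxcl2: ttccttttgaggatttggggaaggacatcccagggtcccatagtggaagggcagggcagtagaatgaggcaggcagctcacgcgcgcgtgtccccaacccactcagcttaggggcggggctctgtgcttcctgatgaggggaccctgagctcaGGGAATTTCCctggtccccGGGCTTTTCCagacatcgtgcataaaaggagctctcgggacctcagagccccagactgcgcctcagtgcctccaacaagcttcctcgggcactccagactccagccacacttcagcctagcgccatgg
The Il1r2 window holds 1 STAT match (TTCAAGGAA, bases -111 to -103 from the start), the Il1rn window 1 AP-1 match (TGAGTCA, -141 to -135) and the Cxcl2 window 2 NF-kB matches (GGGAATTTCC at -97 to -88 and GGGCTTTTCC at -78 to -69). None of these matches overlap, and the Il1rl1 window shown holds none of the 4 motifs in these letters. The window at the other start of Il1rl1 holds 1 forkhead match, and the windows at the other 2 starts of Il1rn hold 1 NF-kB match each. Of 50 members found in the table, with 65 windows in all, 11 windows held the AP-1 letters, 4 the STAT, 1 (that of Il1rl1) the forkhead and 6 the NF-kB letters. Over all 32851 windows of the same length, the shares were 7.81% for AP-1, 8.3% for STAT, 3.65% for forkhead and 1.63% for NF-kB. A match of letters describes the sequence and is not evidence of binding.

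Il1r2, the decoy receptor that binds IL-1 without signalling, was at 140 and 570 CPM in aged Tconv, 7.46 and 8.05 in Dcaf1-deficient-labelled Tconv and 2.06 and 3.80 in young Tconv. Aged Tconv 1 and 2 both lay far above every other Tconv library, and between the L5-tagged libraries alone the levels were 140 in aged Tconv 1 and 3.80 in young Tconv 2. The log2 fold change in aged against young Tconv was 6.93 (SE 1.14, edgeR adjusted p 0.0199). In Treg the gene was at 102 and 720 CPM in the aged, 50.2 and 33.6 under the label Dcaf1-deficient and 19.3 and 15.1 in the young. The groups did not overlap, and the difference between aged and young Treg was 4.58 on the log2 scale (SE 1.00, edgeR adjusted p 0.126). DESeq2 gave an adjusted p of 2.25e-06 for it, and edgeR without aged Treg 1 gave 5.39 and an adjusted p of 0.0143. Over all conditions Il1r2 was higher in Treg by 1.73 on the log2 scale (SE 0.53, edgeR adjusted p 0.0497), though the levels overlapped, with 15.1 to 720 CPM in Treg (median 41.9) and 2.06 to 570 in Tconv (median 7.76). This call was lost in most fits that left out a single library, and limma did not make it.

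Il1rn encodes the secreted antagonist of the IL-1 receptor. It was at 7.5 and 359 CPM in aged Tconv, 2.29 and 2.36 in Dcaf1-deficient-labelled Tconv and 0.657 and 1.21 in young Tconv. Both aged libraries were above the rest, but aged Tconv 2 stood far above aged Tconv 1, and the log2 fold change of 7.62 has an SE of 1.92 (edgeR adjusted p 0.0486). In Treg the levels were 9.27 and 90.5 CPM in the aged, 7.14 and 6.93 under the label Dcaf1-deficient and 1.37 and 2.86 in the young. The high values were thus those of aged Treg 2 and aged Tconv 2, the 2 libraries tagged L3; the part of the tag in this was not tested.

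Il1r1, the receptor that does signal for IL-1, was at 32.9 and 375 CPM in aged Tconv, 24.7 and 24.9 in Dcaf1-deficient-labelled Tconv and 4.22 and 3.19 in young Tconv. It rose by 5.78 on the log2 scale in aged against young Tconv (SE 1.20, edgeR adjusted p 0.0312). The levels in Dcaf1-deficient-labelled Tconv also lay above the young ones without overlap, at 2.74 on the log2 scale (SE 1.05, edgeR adjusted p 0.461). In Treg they were 27.7 and 20.2 CPM in the aged, 31.8 and 33.2 under the label Dcaf1-deficient and 2.92 and 13.8 in the young.

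Il1rl1 encodes ST2, the receptor of IL-33 known from Treg of tissues. It ranged from 32.3 to 260 CPM over the 6 Treg libraries (median 99.3) and from 9.01 to 32.2 over the 6 Tconv libraries (median 12.6). The ranges did not overlap, by a narrow margin between young Treg 2 and Dcaf1-deficient Tconv 2, and the log2 fold change of Treg over Tconv was 2.49 (SE 0.23, edgeR adjusted p 0.00141). It was called under each alternative and each left-out library tried for this comparison. In the aged, 106 and 260 CPM in Treg stood against 14.2 and 9.89 in Tconv, a log2 fold change of 3.93 (SE 0.42, edgeR adjusted p 0.0105). In the young, 38.8 and 32.3 CPM in Treg stood against 9.01 and 10.9 in Tconv (edgeR log2 fold change 1.83, SE 0.39, adjusted p 0.0793). Aged Treg and Treg labelled Dcaf1-deficient (113 and 92.7 CPM) both lay above young Treg, at 2.36 (SE 0.39, edgeR adjusted p 0.126) and 1.53 (SE 0.38, edgeR adjusted p 0.131) on the log2 scale. DESeq2 called both differences, with adjusted p of 4.21e-07 and 0.00234. Without aged Treg 1 and young Treg 2 the log2 differences were 2.71 (1 library against 1) and 1.41 (2 against 1). Tconv labelled Dcaf1-deficient had 30.3 and 32.2 CPM against 9.01 and 10.9 in young Tconv, 1.65 on the log2 scale (SE 0.39, edgeR adjusted p 0.341).

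**Figure D4:**
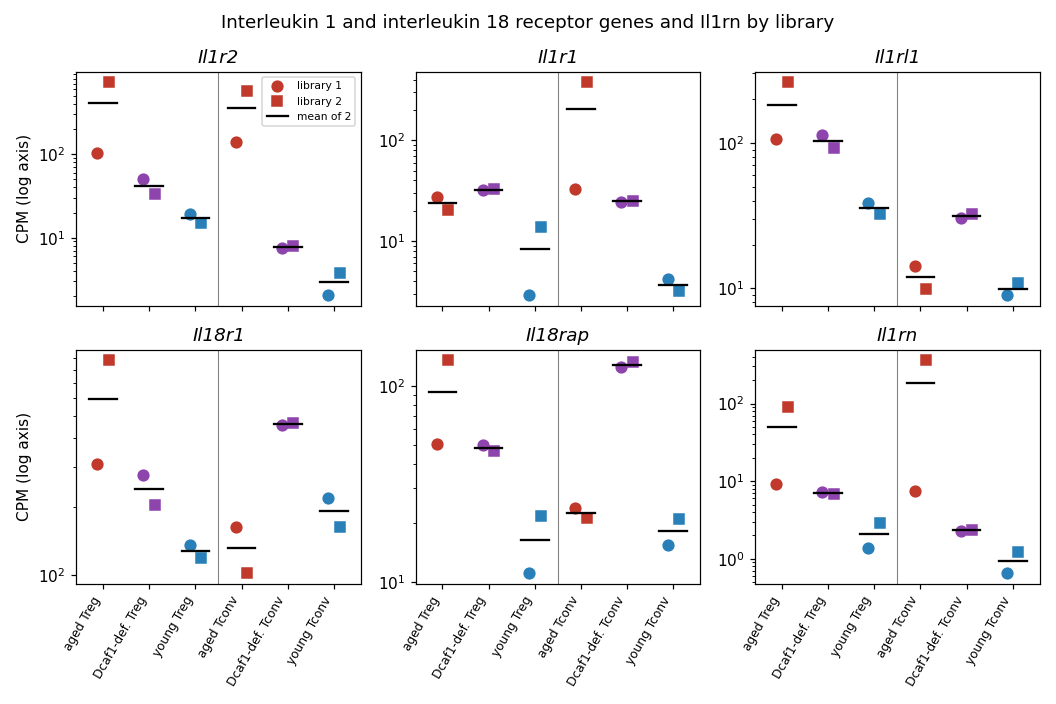
CPM on a log axis (vertical) of Il1r2, Il1r1, Il1rl1, Il18r1, Il18rap and Il1rn in the 6 groups (horizontal), with a point for each library, shaped by replicate, and a bar at the mean of 2. Il1r2 and Il1rn are highest in aged Treg 2 and aged Tconv 2, at 720 and 570 CPM for Il1r2, whereas Il18r1 and Il18rap are high in aged Treg 2 and in both Dcaf1-deficient Tconv libraries but not in aged Tconv.

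The chains of the IL-18 receptor, Il18r1 and Il18rap, gave another order of groups. Il18r1 was at 309 and 882 CPM in aged Treg, 275 and 204 in Dcaf1-deficient-labelled Treg and 135 and 119 in young Treg, and at 162 and 102 in aged Tconv, 457 and 467 in Dcaf1-deficient-labelled Tconv and 218 and 163 in young Tconv. Il18rap was at 50.7 and 135 CPM in aged Treg, 50.2 and 46.4 in Dcaf1-deficient-labelled Treg and 11.1 and 21.6 in young Treg. In Tconv Il18rap was at 23.7 and 21.2 CPM in the aged, 125 and 132 under the label Dcaf1-deficient and 15.5 and 21 in the young. Both chains thus lay above young Treg in aged and Dcaf1-deficient Treg, and above young Tconv in Dcaf1-deficient Tconv, while Il18r1 in aged Tconv was no higher than in young Tconv. None of these differences passed edgeR's threshold. The log2 fold change in aged against young Treg was 2.22 for Il18r1 (SE 0.46) and 2.50 for Il18rap (SE 0.47), both with an edgeR adjusted p of 0.126. Without aged Treg 1 edgeR called both, at 2.79 (adjusted p 0.00663) and 3.04 (adjusted p 0.00857). For Il18rap in Dcaf1-deficient against young Tconv it was 2.81 (SE 0.48, edgeR adjusted p 0.203; DESeq2 adjusted p 4.9e-07). The age difference in Treg exceeded that in Tconv by 2.76 for Il18r1 (SE 0.64, edgeR adjusted p 0.403; DESeq2 adjusted p 0.00142).

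Il10rb and Il10ra encode the chains of the receptor of IL-10, a cytokine that restrains inflammation. Il10rb had the tightest values of the members called: 158 to 215 CPM in the 6 Treg libraries (median 170) against 85 to 134 in the 6 Tconv libraries (median 103). The ranges did not overlap, and the log2 fold change was 0.72 (SE 0.07, edgeR adjusted p 0.00165), called under each alternative and each left-out library. In the young it was at 158 and 164 CPM in Treg against 85 and 100 in Tconv (edgeR log2 fold change 0.80, SE 0.12, adjusted p 0.0362). In libraries labelled Dcaf1-deficient, 182 and 215 CPM in Treg stood against 98.5 and 106 in Tconv (0.95, SE 0.12, edgeR adjusted p 0.0217). Aged Tconv, at 123 and 134 CPM, were above young Tconv by 0.47 on the log2 scale (SE 0.12, edgeR adjusted p 0.0491), a call lost with other size factors or without the low-count filter. Of its transcript 31-mers 14.9% are shared with other genes, 14.2% with Gm21970, which overlaps it on the same strand, so a share of its count is uncertain.

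Il10ra was at 230 to 490 CPM in Treg (median 400.0) and at 93.3 to 399 in Tconv (median 212), higher in Treg by 0.86 on the log2 scale (SE 0.17, edgeR adjusted p 0.016). Aged Tconv held 258 and 399 CPM of it and young Tconv 93.3 and 158, a rise of 1.39 on the log2 scale (SE 0.31, edgeR adjusted p 0.0356). Treg held 375 and 427 CPM in the aged, 426 and 490 under the label Dcaf1-deficient and 230 and 337 in the young. These Treg groups did not overlap with the young, but edgeR called neither difference.

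Chains of the IL-6 receptor ran the other way. Il6st, the signalling chain gp130 shared by the IL-6 family, was at 196 and 194 CPM in aged Treg, 173 and 194 in Dcaf1-deficient-labelled Treg and 587 and 418 in young Treg. In Tconv Il6st was at 482 and 229 CPM in the aged, 373 and 380 under the label Dcaf1-deficient and 538 and 573 in the young. It was lower in Treg than in Tconv by edgeR (log2 fold change -0.68, SE 0.18, adjusted p 0.0316), although the young groups overlapped. Aged and Dcaf1-deficient Treg stood below young Treg at -1.36 and -1.45 on the log2 scale (SE 0.31 each, edgeR adjusted p 0.131 each, DESeq2 adjusted p 0.00138 and 0.000782). The T cell sum was also lower than in young Treg in Dcaf1-deficient-labelled Treg and aged Treg 1, but not in aged Treg 2. Its part in the levels of Il6st and Il6ra was not tested. Il6ra, the chain that binds IL-6, was at 128 and 20.4 CPM in aged Treg, 143 and 164 in Dcaf1-deficient-labelled Treg and 348 and 251 in young Treg. In Tconv it was at 215 and 93.4 CPM in the aged, 304 and 309 under the label Dcaf1-deficient and 422 and 433 in the young. Both Il6ra values of each aged and each Dcaf1-deficient group lay below both young values of the same cell type, with a log2 fold change of -2.01 in aged Treg (SE 0.73, edgeR adjusted p 0.227). Without aged Treg 1 it was -3.88 (edgeR adjusted p 0.014).

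Among the other interleukin receptor chains, Il15ra, the chain that binds IL-15 and presents it to neighbouring cells, was at 38.1 and 61.3 CPM in aged Tconv, 17.5 and 15.5 in Dcaf1-deficient-labelled Tconv and 14.4 and 10.6 in young Tconv. It rose with age in Tconv by 1.99 on the log2 scale (SE 0.38, edgeR adjusted p 0.0248) and kept its call with a term for the title tag. In Treg it was at 29.8 and 63.5 CPM in the aged, 23.9 and 22.5 under the label Dcaf1-deficient and 22.3 and 21.5 in the young. Il17rb, the receptor of IL-25, was at 4.72 and 2.28 CPM in aged Tconv, 11.9 and 10.4 in Dcaf1-deficient-labelled Tconv and 11.3 and 16.4 in young Tconv. It fell with age in Tconv (edgeR log2 fold change -1.98, SE 0.46, adjusted p 0.0413), and over all conditions it was higher in Treg, at 11.8 to 26.1 CPM, than in Tconv, at 2.28 to 16.4 (1.09, SE 0.26, edgeR adjusted p 0.0238). Il2rg, the common gamma chain of the receptors for IL-2, IL-7 and IL-15, was at 817 and 1696 CPM in aged Treg, 797 and 780 in Dcaf1-deficient-labelled Treg and 1017 and 838 in young Treg, and at 943 to 1159 over the Tconv libraries. Aged Treg 2 thus stood apart for this gene, and 28.7% of its 31-mers are shared with Gm20489 on the same strand. Il23r was at 4.05 and 40.1 CPM in aged Tconv, against 2.58 and 2.04 in young Tconv, and at 3.06 to 16.7 over the Treg libraries.

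The 4 members that are no classical ligand or receptor included, beside Il1r2 and Il1rn, the enzyme gene Il4i1 and Il22ra2, the soluble decoy receptor of IL-22. Il4i1, an amino acid oxidase of antigen-presenting cells, was at 42.1 and 20.2 CPM in aged Treg, 54.6 and 47.7 in Dcaf1-deficient-labelled Treg and 0.706 and 44.7 in young Treg. Its Tconv levels were 10.3 and 1.38 CPM in the aged, 28.2 and 26.9 under the label Dcaf1-deficient and 1.31 and 26.3 in the young. The spread between replicates exceeded the differences between ages, and 78.9% of its 31-mers are shared with Tbc1d17, which overlaps it on the opposite strand. Il22ra2 was at most 2.18 CPM in each library.

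Among chemokine receptors, Ccr2, the receptor of Ccl2, was at 163 and 109 CPM in aged Treg, 163 and 154 in Dcaf1-deficient-labelled Treg and 25.2 and 58.8 in young Treg. In Tconv Ccr2 was at 44.5 and 168 CPM in the aged, 196 and 210 under the label Dcaf1-deficient and 31.2 and 48.6 in the young. The Dcaf1-deficient libraries were above the young ones without overlap in both cell types, by 1.92 on the log2 scale for Treg (SE 0.62, edgeR adjusted p 0.144) and by 2.35 for Tconv (SE 0.63, edgeR adjusted p 0.385); DESeq2 called both, with adjusted p of 0.0165 and 0.00647. The macrophage sum moved the same way, at 7175 and 8913 CPM in Dcaf1-deficient-labelled Treg against 85.5 and 2552 in young Treg, and at 638 and 678 in Dcaf1-deficient-labelled Tconv against 13.3 and 174 in young Tconv; its part in the Ccr2 levels was not tested. Of the Ccr2 31-mers 3.48% are shared with other genes.

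Ccr9, the receptor of Ccl25 that directs cells to the gut, was at 9.62 to 38.8 CPM in Treg (median 15.3) and at 15.5 to 79.5 in Tconv (median 56.5). It was lower in Treg by edgeR (log2 fold change -1.35, SE 0.23, adjusted p 0.0094). The widest gap was under the label Dcaf1-deficient, where 10.1 and 20.5 CPM in Treg stood against 72.8 and 79.5 in Tconv (-2.31, SE 0.41, edgeR adjusted p 0.0401). The aged had 9.73 and 9.62 CPM in Treg and 25.1 and 15.5 in Tconv, and the young 38.8 and 32.8 in Treg and 40.1 and 74.0 in Tconv. Plasmacytoid dendritic cells also express Ccr9, and the sum of 5 dendritic cell genes was 6.69 to 63.1 CPM over the Treg libraries against 43.2 to 368 over the Tconv libraries; its part in the result was not tested. On the opposite strand AC165425.1 overlaps Ccr9 and shares 18.2% of its 31-mers.

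Ccr7, which leads T cells to lymph nodes, was at 201 and 55.3 CPM in aged Treg, 227 and 204 in Dcaf1-deficient-labelled Treg and 296 and 300 in young Treg, and at 315 and 29.7 in aged Tconv, 619 and 589 in Dcaf1-deficient-labelled Tconv and 679 and 760 in young Tconv. It was lowest in the aged libraries numbered 2, and in each cell type the young values stood above those of both other groups; with all 12 libraries edgeR called none of these differences, apart from aged against young Tconv with the tag term. Without aged Tconv 1 that difference was -4.60 on the log2 scale (edgeR adjusted p 0.00809). Cxcr3, the receptor of Cxcl9, was at 99.3 and 315 CPM in aged Treg, 75.7 and 69.8 in Dcaf1-deficient-labelled Treg and 43.7 and 44.9 in young Treg. The same gene was at 181 and 136 CPM in aged Tconv, 132 and 128 in Dcaf1-deficient-labelled Tconv and 61.0 and 60.4 in young Tconv. The young pairs agreed closely and lay below all other libraries of their cell type, with a log2 fold change of 2.23 in aged Treg (SE 0.45, edgeR adjusted p 0.126) that reached an edgeR adjusted p of 0.00315 without aged Treg 1. Cxcr4, the receptor of Cxcl12, was at 286 and 566 CPM in aged Treg and 176 and 313 in young Treg, and at 284 in aged Tconv 1 against 244 and 241 in young Tconv, with its highest level of all libraries in aged Tconv 2. Cxcr1, a receptor of neutrophil-attracting chemokines, had 3 counts over the 6 Treg libraries and 181 over the 6 Tconv libraries, or at most 0.0757 CPM in Treg and 0.475 to 2.29 in Tconv. The ratio of the Treg to the Tconv level was 0.0137 (exact 95% interval 0.0028 to 0.0407, which covers counting error only). Since Cxcr1 reached the minimum sum through its Tconv counts alone, this ratio is a description.

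Among interleukins, Il16, a chemoattractant that binds CD4, was at 527 and 643 CPM in aged Treg, 528 and 543 in Dcaf1-deficient-labelled Treg and 654 and 682 in young Treg, and at 607 to 749 over the Tconv libraries. With all 12 libraries edgeR called it in no comparison; without aged Treg 2 it was called lower in Treg than in Tconv, at -0.24 on the log2 scale over all conditions (edgeR adjusted p 0.0156) and -0.50 in the aged (edgeR adjusted p 0.0482). Il2, the T cell growth factor, was at 0.377 to 1.44 CPM in Treg (median 0.958) and 1.19 to 2.84 in Tconv (median 2.32), lower in Treg by 1.24 on the log2 scale (edgeR log2 fold change -1.24, SE 0.33, adjusted p 0.0346). Of its 31-mers 14.2% are shared with Ntan1.

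Il1a and Il1b encode the agonists of the IL-1 receptor. Il1a was at 22.7 and 2.81 CPM in aged Treg, 25.8 and 37.3 in Dcaf1-deficient-labelled Treg and 0.800 and 16.4 in young Treg, against 0 to 3.37 in Tconv. It was called higher in Treg (edgeR log2 fold change 4.50, SE 0.99, adjusted p 0.0199), a fitted value that rests in part on 3 counts in the aged Tconv group. Il1b was at 40.5 and 5.25 CPM in aged Treg, 45.5 and 77.7 in Dcaf1-deficient-labelled Treg and 1.55 and 62.1 in young Treg. In Tconv Il1b was at 17.8 and 4.09 CPM in the aged, 49.7 and 50 under the label Dcaf1-deficient and 8.12 and 44.2 in the young, overlapping the Treg levels, and with all 12 libraries edgeR called it in no comparison. Il12a, a subunit shared by IL-12 and IL-35, was at 18.0 and 0.138 CPM in aged Treg, 20.1 and 14.8 in Dcaf1-deficient-labelled Treg and 0 and 9.43 in young Treg. In each of these genes young Treg 1 and aged Treg 2 were low and the other 4 Treg libraries high, as in the macrophage, B cell and erythroid sums; the part of other cells in it was not tested. Over the Tconv libraries Il1b reached 50 CPM at macrophage sums of at most 678 CPM, whereas aged Treg 1 had 40.5 at a sum of 6008. The sum of 5 dendritic cell genes was 279 CPM in young Tconv 2 and 354 and 368 under the Dcaf1-deficient label, where Tconv held most Il1b. That sum was 43.2 to 97 CPM in the remaining Tconv libraries, with Il1b at most 17.8. Among Treg its highest value, 63.1 CPM, lay in aged Treg 2, where Il1b was low, but Zbtb46 made up 59.2 CPM of it. Flt3, Clec9a and Siglech were at 0.368, 0.23 and 0.736 CPM in that library, against 22.3, 8.57 and 7.66 in young Treg 2. The part of dendritic cells in the Il1b levels was not tested.

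Of the CC chemokine ligands, Ccl22 and Ccl6 were high in the same 4 Treg libraries. Ccl22, a ligand of Ccr4 made by dendritic cells and macrophages, was at 40.7 and 0.138 CPM in aged Treg, 48.1 and 32.2 in Dcaf1-deficient-labelled Treg and 0.424 and 23.2 in young Treg. Ccl6 was at 38.6 and 6.72 CPM in aged Treg, 44.4 and 77.4 in Dcaf1-deficient-labelled Treg and 0.848 and 39.4 in young Treg. Neither passed the threshold over all Treg against Tconv, with edgeR adjusted p of 0.0551 for Ccl22 and 0.05 for Ccl6. Without young Treg 2 and aged Treg 1, edgeR called Ccl22, Ccl6, Il1a and Il1b higher in Dcaf1-deficient than in young Treg, by 6.55, 6.16, 5.30 and 5.31 on the log2 scale, where the remaining young Treg library is the one with a macrophage sum of 85.5 CPM. Ccl24, a ligand of the eosinophil receptor Ccr3, was at 0.518 to 6.00 CPM in Treg (median 4.08) and 0.475 to 1.25 in Tconv (median 0.619), a log2 fold change of 2.51 (SE 0.53, edgeR adjusted p 0.0179).

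**Figure D5:**
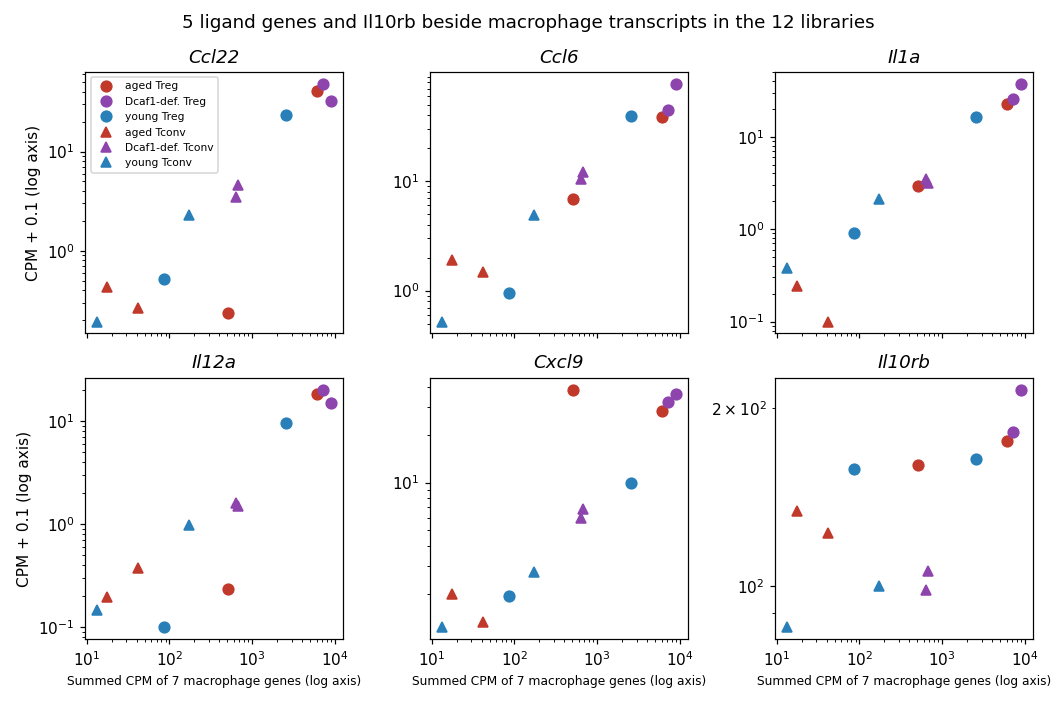
CPM plus 0.1 (vertical, log axis) of Ccl22, Ccl6, Il1a, Il12a, Cxcl9 and Il10rb against the summed CPM of 7 macrophage genes (horizontal, log axis), with a point for each of the 12 libraries; circles are Treg and triangles Tconv. Ccl6 and Il1a climb along with the macrophage sum, and Cxcl9 has a high point at aged Treg 2 (38.3 CPM at a sum of 504). Il10rb is higher in each Treg than in each Tconv library. Only young Treg 1 and aged Treg 2 have macrophage sums within the Tconv range. Among Treg, Il10rb also climbs with the sum, from 158 CPM at 85.5 to 215 CPM at 8913. The part of macrophages in its levels was not tested.

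Ccl1, a ligand of Ccr8, was at 3.29 and 9.30 CPM in aged Treg, 3.66 and 2.27 in Dcaf1-deficient-labelled Treg and 0.848 and 2.03 in young Treg, against 0.235 to 0.889 in Tconv. It was higher in Treg by 2.30 on the log2 scale (SE 0.42, edgeR adjusted p 0.012). Ccl3 and Ccl4, attractants of monocytes and T cells, were highest in aged Tconv, with 55.4 and 206 CPM of Ccl3 and 56.7 and 237 of Ccl4, against 8.31 and 29 of Ccl3 and 4.41 and 13.3 of Ccl4 in young Tconv. These groups did not overlap. Ccl4 differed by 4.06 on the log2 scale (SE 1.17, edgeR adjusted p 0.0694, DESeq2 adjusted p 0.00048). In Treg Ccl3 was at 9.69 and 7.27 CPM in the aged and 1.13 and 25.9 in the young, and Ccl4 ranged from 0.848 to 12.2 CPM over the 6 Treg libraries.

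Of the CXC ligands, Cxcl9, an interferon-induced ligand of Cxcr3, was at 28.2 and 38.3 CPM in aged Treg, 31.8 and 35.8 in Dcaf1-deficient-labelled Treg and 1.84 and 9.87 in young Treg, against 1.13 to 6.75 in Tconv. It was higher in Treg by 2.82 on the log2 scale (SE 0.43, edgeR adjusted p 0.0063) and stayed called without any one library. Unlike Ccl22 and Il12a it was high in aged Treg 2, where the macrophage sum was 504 CPM. Among the other Treg libraries it climbed with that sum, from 1.84 CPM at 85.5 in young Treg 1 to 35.8 at 8913 in Dcaf1-deficient Treg 2. In Tconv it was at 5.9 and 6.75 CPM under the label Dcaf1-deficient, at sums of 638 and 678, and at most 2.64 elsewhere. The part of macrophages in the Cxcl9 levels was not tested. The difference from young Treg was 2.50 in the aged (SE 0.72, edgeR adjusted p 0.171) and 2.53 in the Dcaf1-deficient (SE 0.72, edgeR adjusted p 0.137). Without young Treg 2 and aged Treg 1 the log2 differences were 4.34 (1 library against 1) and 4.20 (2 against 1). Cxcl13, which draws B cells to follicles, was at 0.188 to 2.06 CPM in Treg and 0.0482 to 0.683 in Tconv, a log2 fold change of 2.03 (SE 0.61, edgeR adjusted p 0.0479) that was called without 2 of the 12 libraries in turn and lost without any of the other 10.

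Cxcl2, a neutrophil attractant whose promoter is shown above with its NF-kB matches, was at 7.72 and 254 CPM in aged Tconv, 1.46 and 1.69 in Dcaf1-deficient-labelled Tconv and 0.0939 and 1.32 in young Tconv. In Treg it was at 7.46 and 72.3 CPM in the aged, 4.18 and 6.30 under the label Dcaf1-deficient and 6.50 and 4.59 in the young. As with Il1rn, aged Tconv 2 and aged Treg 2 were highest. The difference in Tconv was 7.56 on the log2 scale (SE 1.99, edgeR adjusted p 0.0546). EdgeR did not call it with all 12 libraries and no added term, whereas DESeq2 did (adjusted p 3.47e-05). Without aged Tconv 1 it was 8.51. Of the Cxcl2 31-mers 7.59% are shared with Cxcl3. Cxcl16, the transmembrane ligand of Cxcr6, was at 25.5 and 14.9 CPM in aged Treg, 27.7 and 16.9 in Dcaf1-deficient-labelled Treg and 1.04 and 18.6 in young Treg, against 1.88 to 10.1 in Tconv. Cx3cl1, the ligand of Cx3cr1, was at 8.21 and 3.45 CPM in aged Treg, 8.33 and 4.95 in Dcaf1-deficient-labelled Treg and 0.659 and 5.24 in young Treg. Its Tconv values were 0.0469 to 0.627 CPM, below every Treg value, and edgeR called it higher in Treg (log2 fold change 4.60, SE 0.64, adjusted p 0.00476), a fitted size that rests in part on 3 counts in young Tconv. Like Cxcl13, Cx3cl1 entered the set largely through its Treg counts, so both calls are descriptions. Xcl1, the attractant of cross-presenting dendritic cells, was at 27.2 and 17.1 CPM in aged Tconv, 7.42 and 7.62 in Dcaf1-deficient-labelled Tconv and 6.29 and 10.1 in young Tconv, without a call in Tconv.

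Groups often failed to overlap without a call. Of the 63 members, 25 were higher and 13 lower in aged than in young Tconv without overlap, where 29.9% of all genes were higher and 29.1% lower. In Treg labelled Dcaf1-deficient against young Treg the counts were 33 and 9 (35.2% and 36.9% of all genes), and in Dcaf1-deficient against young Tconv 35 and 9 (34.2% and 32.7% of all genes). In aged against young Treg they were 21 and 7 (20.2% and 22.4% of all genes). Over all 6 Treg against all 6 Tconv libraries, 3 members (Il10rb, Il1rl1 and Cx3cl1) were higher and 1 (Cxcr1) lower without overlap, where 1.89% of all genes were higher and 2.3% lower. Cx3cl1 and Cxcr1 entered the set largely through the cell type in which they were high, so their separation is a description. The other 23 members were called by edgeR in none of the comparisons between groups with all 12 libraries and no added term, and 8 of them (Ccl9, Ccr10, Cxcl5, Il12rb2, Il13, Il17a, Il1rap and Il27) were called in at least 1 alternative. Of the 23, 13 stayed below 5 CPM in every library. They are the ligands Ccl9, Ccl25, Ccl27a, Cxcl5, Cxcl11, Cxcl15, Il1f9, Il7, Il11, Il13, Il17a, Il17f, Il22 and Il27 and the receptors Ccr10, Cxcr2, Il1rap, Il9r, Il11ra1, Il12rb2, Il13ra1, Il20rb and Il22ra1, whose highest values ranged from 0.966 to 94.9 CPM.

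Downstream of these receptors, 47 of 67 listed genes of JAK, STAT, Myd88 and G protein signalling had a row in the table and were tested. In Treg against Tconv over all conditions 5 were higher and 8 lower, where 11.5% of all genes tested were higher and 11% lower, so the share called was near that of all genes. Cish and Socs2, inhibitors induced by IL-2 through STAT5, were higher in Treg by 2.26 (SE 0.21, edgeR adjusted p 0.00141) and 2.44 (SE 0.25, edgeR adjusted p 0.00212) on the log2 scale, and Irak2, Irak3 and Arrb1 by 0.63, 1.16 and 0.70. Jak1, the kinase shared by many interleukin receptors, was lower (edgeR log2 fold change -0.54, SE 0.09, adjusted p 0.0075), with Stat4 at -0.66, Pik3r5 at -1.31 and Arrb2 at -0.58 also lower. In aged against young Tconv 4 were higher and 0 lower, where 6.38% of all genes were higher and 2.47% lower: Rgs16, a brake on G protein signalling, by 5.01 (SE 0.87, edgeR adjusted p 0.0226), the cytokine gene Lif by 4.46 (SE 0.81, edgeR adjusted p 0.024), Gng2 by 0.95 and Irak4 by 0.39. In the other comparisons of groups, 0 to 3 of the 47 were called in either direction. Cish, Socs2 and Irak2 were higher in young Treg than in young Tconv, where 0.8% of all genes were called. In the aged Cish and Socs2 were higher in Treg (0.821% of all genes called). Under the label Dcaf1-deficient Arrb1 and Irak2 were higher and Jak1 lower in Treg (2.22% of all genes called). In aged against young Treg and Dcaf1-deficient against young of either cell type, 0% of all genes were called.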

How the data were processed

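RNA of Treg and Tconv sorted by flow cytometry was sequenced from TruSeq poly(A) libraries, per the labels' protocols. The authors deposited estimated counts per gene, made with Salmon 0.9.1 per the submitters' processing notes and summed by tximport per the file headers; the build is mm10 per the same notes, and the transcript annotation is not given in the sources used here. Of the values 26.6% are whole within 0.001. A second table deposited by the authors holds log2 values, which the submitters' processing notes tie to DESeq2; it was used here only with limma. The count table has 13404 rows, 18 of them with a symbol turned into a date.

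Estimated counts were rounded and tested with the quasi-likelihood test of edgeR 4.0.16 in R 4.3.3: TMM scaling, filterByExpr (of 11486 genes with a count, 9495 tested and 1991 removed), 1 fit of 12 libraries in 6 groups with 6 residual degrees of freedom, and Benjamini-Hochberg adjustment over all genes tested in each comparison, threshold 0.05. The test was also run on simulated counts in which each gene had the same spread in all groups. That run could not check the test for groups of unequal spread such as these. Groups came from the sample titles. Alternatives were DESeq2 1.42.0, limma 3.58.1, other size factors (RLE), no low-count filter, a term for the title tag, a replicate block and leaving out each library; leaving out young Treg 2 and aged Treg 1 together was added after the data were seen. Positions and shared 31-mers come from GENCODE M21; overlapping genes were counted without a stated strand.

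A receptor that enters the counts of members is not reported here by name or value. The members and all gene lists were chosen with earlier results of these data known. Members named with values are those called by edgeR in any comparison of groups, the 4 of each role with the highest mean CPM, the 3 largest changes in each comparison among members averaging 4 CPM or more whose groups did not overlap, and a list of 28 well-known receptors and ligands where present. Il7r, Il2rb, Ccr4, Ccr6, Ccr8, Cxcr5, Cxcr6, Cx3cr1, Il15 and Il18 were not analysed here. A count of 3 equals 0.112 to 0.163 CPM in the libraries.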

Additional observations from a re-analysis of the deposited data

How the results depend on the processing

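The number of members called moved with the test, the title tag and single libraries. DESeq2 called 14 members in aged against young Treg, 8 in Dcaf1-deficient against young Treg, 17 in aged and 3 in Dcaf1-deficient against young Tconv, and, in Treg against Tconv, 6 in the young, 18 in the aged, 11 in the Dcaf1-deficient and 28 over all conditions; for the age difference between cell types it called 3. Of all genes DESeq2 called 7.89% in aged and 12.4% in Dcaf1-deficient against young Treg, 21% in aged and 2.61% in Dcaf1-deficient against young Tconv, and, in Treg against Tconv, 7.06% in the young, 9.91% in the aged, 15.6% in the Dcaf1-deficient and 31.2% over all conditions. A term for the title tag gave 4 in aged against young Tconv, 2, 0 and 4 in Treg against Tconv (young, Dcaf1-deficient and all), and 1 for the age difference between cell types, and it turned the direction of Cxcl2 in aged against young Treg (log2 fold change -0.09). Limma on the deposited log2 values gave 2, 2 and 5 in young, aged and Dcaf1-deficient Treg against Tconv (1.26%, 1.69% and 3.41% of all genes). EdgeR without the low-count filter gave 2 in the aged. Without young Treg 2 and aged Treg 1 edgeR called 6 members in aged and 19 in Dcaf1-deficient against young Treg, and 10 in aged Treg against aged Tconv. The causes were not tested. Where no share of all genes is given beside a number of members called, that number cannot tell whether members moved more than other genes. Leaving out 1 library in turn gave 0 to 8 members in aged against young Treg, 0 to 18 in aged against young Tconv, 2 to 5 in aged Treg against aged Tconv, 6 to 23 over all conditions and 0 to 1 for the age difference between cell types, and 0 in each other comparison; the lone library left in a group is then assumed to vary like the others. With the replicate block edgeR called 2 members in aged Treg against aged Tconv, 9 in aged against young Tconv, 3 in the Dcaf1-deficient and 17 over all conditions. The labels do not pair replicate numbers. Same-numbered deviations correlated at 0.75 between young Treg and young Tconv. They correlated at 0.26 between the aged cell types and at 0.05 between the Dcaf1-deficient ones. Between conditions of the same cell type the correlations were -0.69 to 0.22. Whether same-numbered libraries share an animal or a batch is not stated and was not tested. With 2 libraries a group, many differences in genes of a few counts could go undetected, although Cxcr1, Cx3cl1, Cxcl13 and Il2 were called over all conditions.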
